A study of Mus musculus with 2 samples.

Results

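The 40 genes described here encode the machinery that copies DNA in S phase, together with the enzymes that supply deoxynucleotides and the regulators that start the phase. They were listed by name for their known part in the process, with earlier results of these data known, and all 40 were found by symbol among the 24532 genes of the count table. All 40 also had a mean of at least 5 CPM (counts relative to the scaled total of the library) over both libraries, the minimum that 9935 genes of the table reached, so none was lost to the filter on low values.

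Messenger RNA was measured in cardiac myofibroblasts of C57BL/6 mice, the matrix-secreting cells that fibroblasts of the heart become after injury. Both groups came from hearts taken 3 days after myocardial infarction, were grown in serum-containing medium, received 12.5 nM of an siRNA with a lipid reagent and were cultured for 72 hours. The siControl group received a control siRNA and the siBcat1 group an siRNA against Bcat1, which encodes the cytosolic aminotransferase of branched-chain amino acids. Each group was 1 library, 1 siRNA was used against Bcat1, and the labels do not say how many hearts or cultures went into a library. There is therefore no spread between replicates, no test and no p-value, and the intervals given in brackets are exact 95% intervals of counting error only.

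Replication starts from origins that are licensed before S phase, when the origin recognition complex, Cdc6 and Cdt1 load the ring of MCM2-7 proteins onto DNA. At S phase entry, cyclin E with CDK2 and the E2F factors turn on replication genes, Cdc45 and GINS join the MCM ring to form the working helicase, and polymerases alpha, delta and epsilon copy both strands behind it. Fibroblasts of the infarcted heart are known to divide in the first days after injury, and replication genes are commonly read as a sign of that proliferation.

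The siControl library held 127309329 counts and the siBcat1 library 104581819, and 1 CPM equalled 131 and 101 counts in the same order. The 40 genes together took 0.228% of the counts in siControl and 0.211% in siBcat1. Bcat1 itself had 8891 counts in siControl and 99 in siBcat1. Of the 12 myofibroblast markers checked, all were detected in both libraries, with a summed level of 32458 CPM in siControl and 17369 CPM in siBcat1. The 9 macrophage markers summed to 8.80 and 25.6 CPM, with Ptprc, Adgre1, Fcgr1 and C1qa at 0 in both libraries. Most of these sums was Lyz2, with 5.46 and 21.3 CPM, while Csf1r had 2.82 and 2.69 CPM. The 7 endothelial markers summed to 48.7 and 51.2 CPM with none at 0, and Tek held 33.9 and 32.0 CPM of these. The 7 cardiomyocyte markers summed to 46.4 and 10.5 CPM, nearly all of it Tnnt2, with Myh6, Ryr2 and Nppa at 0 in both. The part of these other cell types in the values below was not tested.

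Many replication genes are bound by E2F factors, whose recognition sequence was looked for in the RefSeq promoters (GRCm38.p6, from 250 bases before to 50 bases after each start). A promoter was available for 33 of the 40 genes and not for Ccne2, Gins1, Gins2, Mcm4, Pole, Prim2 and Rfc2. The 4 forms TTTCCCGC, TTTCGCGC, TTTGCCGC and TTTGGCGC were searched on both strands. Of the 33 genes, 12 (36.4%) held at least 1 of them, namely Cdc6, Cdt1, Gins3, Lig1, Mcm3, Mcm5, Mcm6, Mcm7, Orc1, Pola1, Pold1 and Rfc3. The share was 2.6% over all 27025 genes with a promoter and 5.07% over the 7746 genes with a promoter and at least 5 CPM. Counted by promoter, it was 31.6% of the members' 38 promoters and 2.26% of all 32851. Stretches of 60 bases before the start are shown for Mcm5, Mcm6 and Pola1, the members whose match lies upstream of the annotated gene in GENCODE as well. Capitals mark the matched letters, and the sequences are on the strand of the gene, 5′ to 3′.
Mcm5: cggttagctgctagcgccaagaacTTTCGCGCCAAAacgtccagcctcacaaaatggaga
Mcm6: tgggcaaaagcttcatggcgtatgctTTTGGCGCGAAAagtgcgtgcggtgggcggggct
Pola1: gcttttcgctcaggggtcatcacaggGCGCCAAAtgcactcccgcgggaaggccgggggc

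The Mcm5 stretch is chr8:75109332-75109391 (plus strand), the Mcm6 stretch chr1:128359782-128359841 (minus strand) and the Pola1 stretch chrX:93632260-93632319 (minus strand). In Mcm5 and Mcm6, a match on each strand overlaps to form the same 12 bases, TTTCGCGCCAAA in Mcm5 and its reverse complement TTTGGCGCGAAA in Mcm6. Only 4 of the 32851 promoters hold these 12 bases on either strand, and these 2 members are among them. Both genes were lower with siBcat1 in scaled counts and with TPM, by sizes given below, and length-adjusted Mcm5 had -0.40 and Mcm6 0.00. The 12 members with a match had a median log2 ratio of -0.16 and the 21 with a promoter but no match 0.30. These medians were -0.01 and 0.02 after the trend on transcript length, described below, was removed. The 7 members without a promoter, Pole, Gins1 and Ccne2 among them, are in neither median. A match is a description of the letters in this window and no evidence that a factor binds there.

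As a group, the replication genes lay close to the middle of all genes, with members on both sides. The log2 ratio of siBcat1 over siControl, in counts scaled by TMM (a factor for each library that sets the trimmed mean difference of all genes to 0), had a median of 0.06 over the 40 members and -0.06 over all 9935 genes. By this scale 21 members were above 0 and 19 below, beside 4648 and 5287 of the 9935 genes. Only Pole and Rfc1 were at least 2-fold lower (2 of 40, beside 13.0% of all genes), and no member was at least 2-fold higher (beside 5.58%). At 1.5-fold, Mcm2 and Mcm5 joined them on the lower side, making 4 of 40 beside 25.6% of all genes. Orc6, Gins1, Rpa3 and Ccne2 were at least 1.5-fold higher, again 4 of 40, beside 17.6% of all genes. The share of members past either size was thus below the share of all genes. In bulk RNA, fewer cells in S phase and less of each transcript per cell cannot be told apart.

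Another scaling shifts all of these values together. On the deposited TPM values (transcript abundances, scaled for transcript length and library total), taken as log2(TPM + 1), the median of all 9935 genes was -0.52 and that of the members -0.41. There 34 of 40 members were below 0, beside 7824 of the 9935 genes. Of the 40, 17 were at least 1.5-fold lower (beside 46.5% of all genes) and 4 at least 2-fold lower (beside 24.1%). No member was at least 1.5-fold or 2-fold higher on that scale, beside 3.56% and 0.976% of all genes. The distance between the members' median and that of all genes was nearly the same on both scales, 0.12 with scaled counts and 0.11 with TPM. Of the 40 members, 11 had a log2 ratio below 0 under all 8 scalings and adjustments tried (Mcm2, Mcm3, Mcm5, Mcm7, Pola2, Pold1, Pold2, Pole, Rfc1, Lig1 and Tk1). Another 4 were above 0 under all of them (Orc6, Gins1, Ccne1 and Ccne2), and the remaining 25 changed sign with the setting. The direction of those 25 thus depends on the setting. A sign kept under all 8 is not fixed either, since every setting uses the same 2 libraries. Some kept signs also lie near 0, such as Lig1 with -0.01 after adjustment for transcript length and Ccne1 with 0.01 with TPM.

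**Figure D1:**
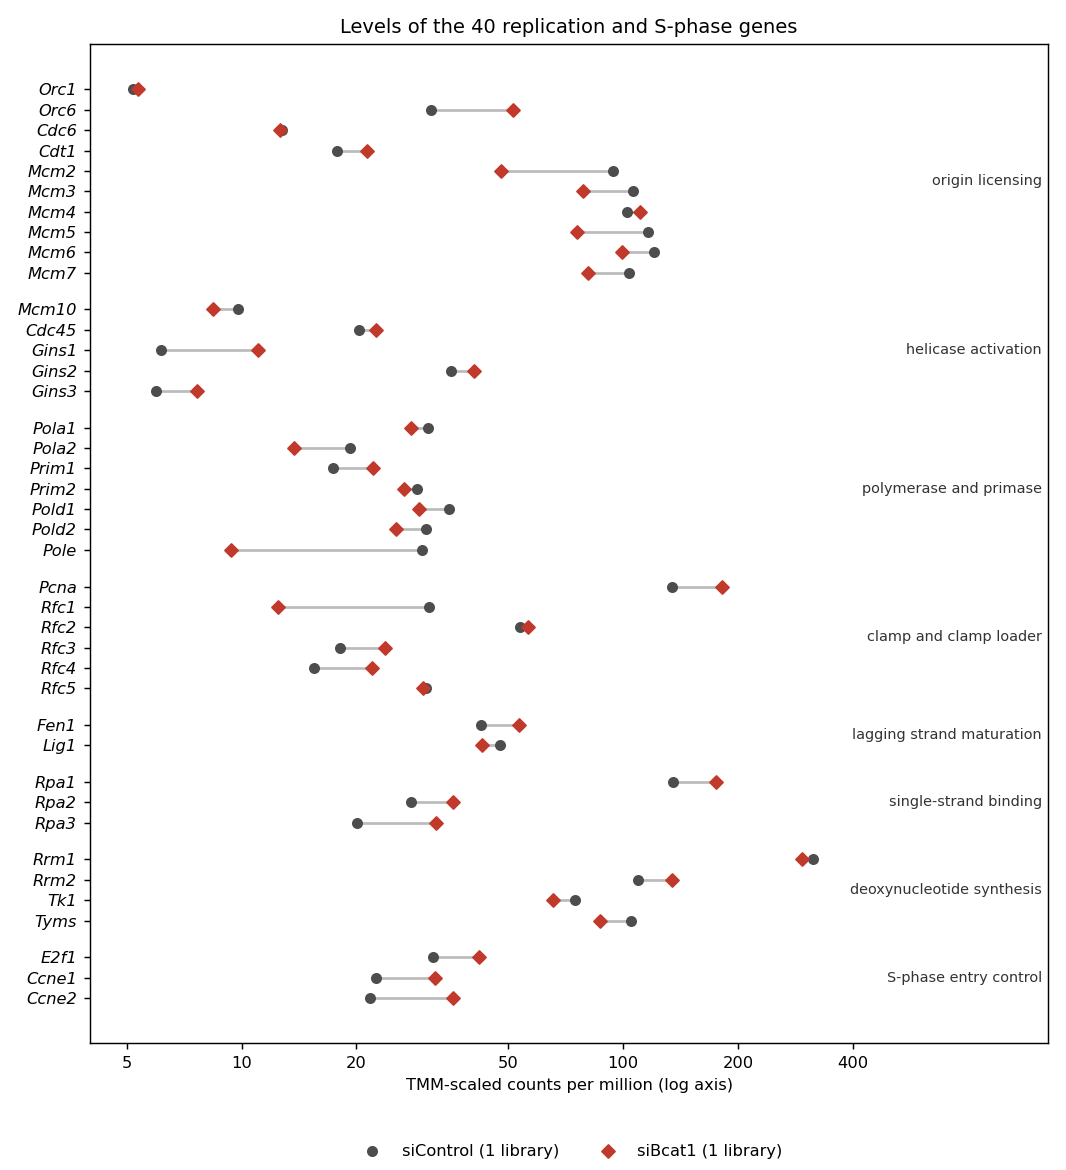
TMM-scaled CPM (log axis) of each of the 40 genes, grouped by role, in the siControl library (grey circles) and the siBcat1 library (red diamonds). The widest gaps are those of Pole, Rfc1 and Mcm2, where siBcat1 is lower, and Gins1, where siBcat1 is higher; most other pairs lie close together.

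Transcript length matters for these values, because short transcripts tended to be higher and long ones lower with siBcat1. Across the 40 members, whose points share the same 2 libraries, Spearman's rho between log2 ratio and bases of transcript was -0.58, and it was -0.66 over the 9886 genes with a known length. The 10 shortest members, from Rpa3 with 670 bases to Rpa2 with 1813 bases, had a median log2 ratio of 0.42, and 8 of them were above 0. The 10 longest, from Mcm4 with 3589 bases to Pole with 7163, had a median of -0.13, and 6 were below 0. These 10 include Gins2 and Rfc2, both above 0, for which the authors' counts and TPM imply only 1038 and 1518 bases. A smooth trend (lowess) of the log2 ratio on length over all genes was subtracted to give length-adjusted values. Their median over members was 0.02, 0 members passed 2-fold in either direction (beside 5.28% of all genes lower and 4.14% higher), 5 were at least 1.5-fold lower (beside 14.1%) and 3 at least 1.5-fold higher (beside 12.8%). The 5 lower ones were Mcm2, Pold2, Pole, Rfc1 and Tk1, and the 3 higher ones Rfc2, Rpa1 and Ccne2. For Gins2, Rfc2 and Rfc5 the annotated transcript is over 1.5 times as long as the length that the authors' counts and TPM imply together. With that implied length Gins2 had -0.42 and not 0.54, Rfc2 had -0.33 and not 0.62, and Rfc5 had -0.33 and not 0.02, so their length-adjusted values have no firm sign. With implied lengths throughout, 0 of 40 members passed 2-fold (beside 5.36% of all genes lower and 3.87% higher), 5 (again Mcm2, Pold2, Pole, Rfc1 and Tk1) were at least 1.5-fold lower (beside 13.7%) and 1, Ccne2, at least 1.5-fold higher (beside 12.3%).

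**Figure D2:**
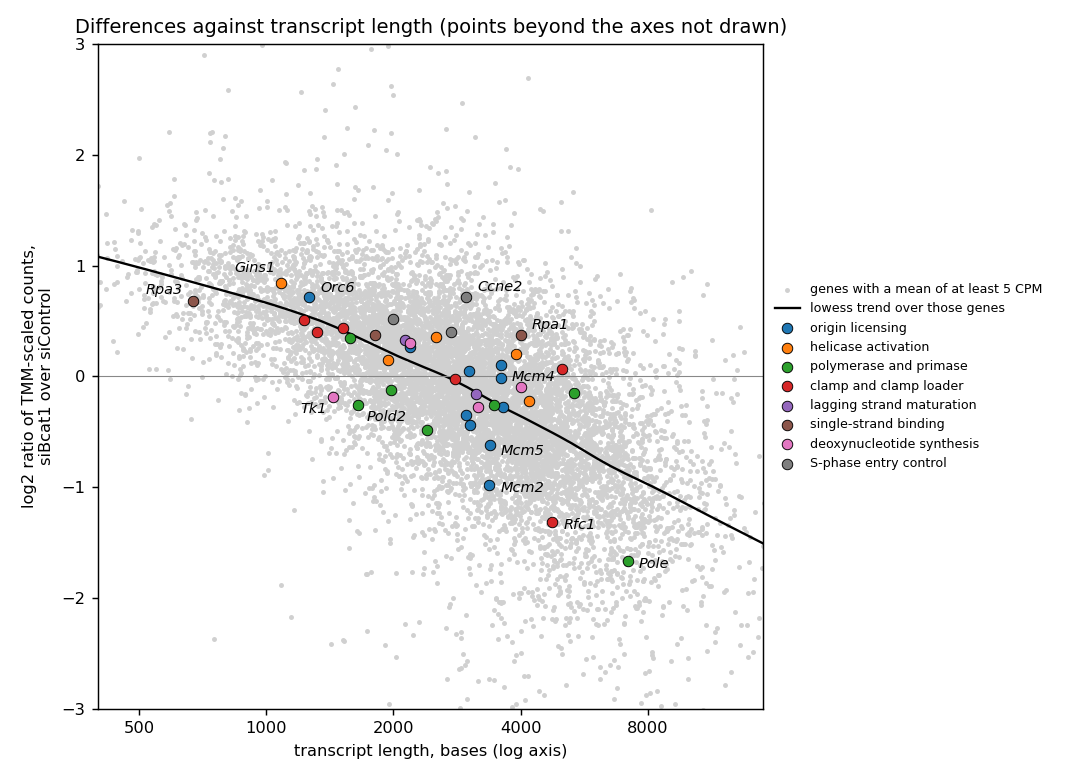
Log2 ratio of siBcat1 over siControl in TMM-scaled counts against transcript length in bases (log axis), for all genes that reached 5 CPM on average (grey), with the lowess trend over them (black line) and the 40 members coloured by role. Members follow the downward trend, with Mcm2, Rfc1, Pole, Tk1 and Pold2 below the line and Ccne2 and Rpa1 above it.

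Origin licensing genes differed in both directions, and the 6 subunits of the MCM ring did not move as one. Mcm2 (chromosome 6, 88883474 to 88898780, minus strand, GRCm38), a subunit of the replicative helicase, had 12373 counts in siControl and 4849 in siBcat1, which are 94.1 and 47.9 CPM. Its log2 ratio was -0.98 [-1.02 to -0.93], or 1.97-fold lower, and it stayed lowest of the 6 subunits with TPM (-1.44) and after length adjustment (-0.77). Mcm5, whose promoter is shown above, had 15220 and 7659 counts and a log2 ratio of -0.62 [-0.65 to -0.58]. Mcm6, which carries the same 12 bases, had 15786 and 10038 counts and -0.28 [-0.31 to -0.24]. The Mcm5 and Mcm6 intervals do not overlap, but they hold counting error only, and the spread between cultures is not known. Mcm3 had 13962 and 7941 counts and Mcm7 13574 and 8200, with log2 ratios of -0.44 and -0.35. Mcm4 was the exception in the ring, with 13469 and 11178 counts, 102 and 110 CPM and a log2 ratio of 0.11 [0.07 to 0.14].

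These subunits have similar transcript lengths, from 2962 bases in Mcm7 to 3633 in Mcm6, so the length trend separates them little. Their log2 ratios spanned 1.08 before and 1.14 after length adjustment. A span within the ring does not depend on how the 2 libraries are scaled to each other. Per transcript length, the 6 genes ranged from 57.9 TPM (Mcm2) to 89.4 TPM (Mcm7) in siControl, a 1.54-fold range, and from 20.7 TPM (Mcm2) to 49.4 TPM (Mcm7) in siBcat1, a 2.38-fold range. Whether this wider range exceeds the spread between cultures cannot be told from 1 library per group.

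The loaders of the ring ranged in scaled counts from little difference (Cdc6 and Orc1) to a higher level (Orc6). Cdc6, the ATPase that helps to open and load the ring, had 1677 and 1278 counts, with a log2 ratio of -0.02 [-0.12 to 0.09], and Cdt1, which brings the MCM proteins to the origin, had 2332 and 2165 counts, with 0.27 [0.18 to 0.35]. Orc1, the largest subunit of the origin recognition complex and the least abundant member in siControl, had 681 and 542 counts, with 0.05 [-0.12 to 0.21]. Orc6 (chromosome 8, 85299632 to 85308278, plus strand), the smallest subunit of that complex, had 4119 counts in siControl and 5202 in siBcat1, for a log2 ratio of 0.71 [0.65 to 0.77]. With TPM Orc6 had 0.21 and after length adjustment 0.18. The other subunits of the complex, from the list of further replication genes, had -0.68 (Orc2), -0.60 (Orc3), -0.03 (Orc4) and 0.52 (Orc5). The complex thus held both lower and higher subunits.

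Genes for activation of the helicase were mostly slightly higher in scaled counts. Gins1 (chromosome 2, 150905400 to 150931280, plus strand), a subunit of the GINS complex, had the highest ratio of the 40 members. Its counts were 807 in siControl and 1119 in siBcat1, its levels 6.14 and 11.0 CPM, and its log2 ratio 0.85 [0.72 to 0.98], with 0.31 on the TPM scale and 0.23 after length adjustment. Gins2 had 4641 and 4120 counts, or 35.3 and 40.7 CPM, and Gins3 had 784 and 773 counts, or 5.97 and 7.63 CPM. Their log2 ratios of 0.20 and 0.36 were -0.30 and -0.12 with TPM. Cdc45, the third partner of the active helicase, had 2668 and 2278 counts and a log2 ratio of 0.15, which was -0.40 with TPM. Mcm10, which helps the loaded helicase to start, had 1284 and 851 counts and -0.22 [-0.34 to -0.09], with 0.18 after length adjustment. Apart from Gins1, none of these genes kept its sign on every scale.

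Among the polymerases, the catalytic subunit of the leading-strand enzyme stood lowest. Pole (chromosome 5, 110286306 to 110337474, plus strand), the catalytic subunit of polymerase epsilon, had 3904 counts in siControl and 948 in siBcat1, or 29.7 and 9.36 CPM. It was 3.17-fold lower, with a log2 ratio of -1.67 [-1.77 to -1.56], the lowest of the 40 members. Pole also has the longest transcript of the 40, and after length adjustment its value was -0.78. The accessory subunits of the same enzyme did not share the difference in scaled counts, with log2 ratios of 0.37 (Pole2), 0.17 (Pole3) and 0.96 (Pole4). Their length-adjusted values were 0.05, -0.11 and 0.66. That of Pole3 is not firm, because its counts and TPM imply a transcript much shorter than its annotated 1805 bases. In siControl Pole3 had 3273 counts at 86.2 TPM, beside 2645 counts at 65.4 TPM for Rpa3, with 670 bases. Per transcript length, Pole had 8.64 TPM in siControl and 1.92 TPM in siBcat1, while Pole3 had 86.2 and 68.2 TPM and Pole4 had 59.5 and 81.4 TPM. The gap between the lowest and the highest subunit was 9.98-fold in siControl, from Pole to Pole3, and 42.4-fold in siBcat1, from Pole to Pole4.

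For polymerase alpha, which lays the first primers, the catalytic subunit gene Pola1 had 4048 and 2807 counts and a log2 ratio of -0.15 [-0.22 to -0.08], and 0.46 after adjustment for its 5346 bases. Its partner Pola2 had 2527 and 1391 counts and -0.49 [-0.58 to -0.39], with -0.56 after adjustment. The primase subunit genes Prim1 and Prim2 had 0.35 and -0.12 in scaled counts, and -0.03 and -0.33 length-adjusted. Prim1 had 2285 and 2243 counts and Prim2 3797 and 2696. Polymerase delta, which copies the lagging strand, had Pold1 (catalytic) with 4586 and 2962 counts and Pold2 (accessory) with 4000 and 2577, and both had a log2 ratio of -0.26. The further subunits of this enzyme lay on both sides, with log2 ratios of -0.71 for Pold3 (length-adjusted -0.59) and 0.51 for Pold4 (length-adjusted -0.27). The adjusted values of Pold1 and Pold2 parted, with -0.02 for Pold1 and -0.61 for Pold2, whose transcript of 1646 bases is short among genes with a ratio below 0. Of the 7 polymerase and primase genes, 6 were below 0 in scaled counts (all but Prim1), 6 after length adjustment (all but Pola1) and all 7 with TPM. Over all genes, 5287 of 9935 were below 0 in scaled counts, 4935 of 9886 after length adjustment and 7824 of 9935 with TPM.

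In the clamp and its loader, the large loader subunit stood lowest. Pcna, the ring that holds polymerases on DNA, was the most abundant member per transcript length in both libraries, with 220 TPM in siControl and 211 TPM in siBcat1. Its counts were 17592 and 18387, a log2 ratio of 0.44 [0.41 to 0.47], which was -0.07 with TPM and 0.02 length-adjusted. Rfc1 (chromosome 5, 65261850 to 65335670, minus strand), the large subunit of the clamp loader, had 4064 counts in siControl and 1262 in siBcat1, or 30.9 and 12.5 CPM. It was 2.48-fold lower, with a log2 ratio of -1.31 [-1.40 to -1.22] and -0.80 length-adjusted, the lowest adjusted value of the 40. The 4 small subunits, which form the rest of the loader, had log2 ratios between -0.02 (Rfc5) and 0.51 (Rfc4) in scaled counts. Length-adjusted, Rfc2 had 0.62, Rfc3 -0.12, Rfc4 -0.05 and Rfc5 0.02. With implied length these 4 had -0.33, -0.15, -0.04 and -0.33 in the same order, and Rfc1 had -0.82. In counts, Rfc2 had 7064 and 5693, Rfc3 had 2373 and 2408, Rfc4 had 2034 and 2230 and Rfc5 had 4002 and 3033. The range of TPM values over the 5 subunits was 5.41-fold in siControl and 14.0-fold in siBcat1, with Rfc1 lowest and Rfc2 highest in both.

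**Figure D3:**
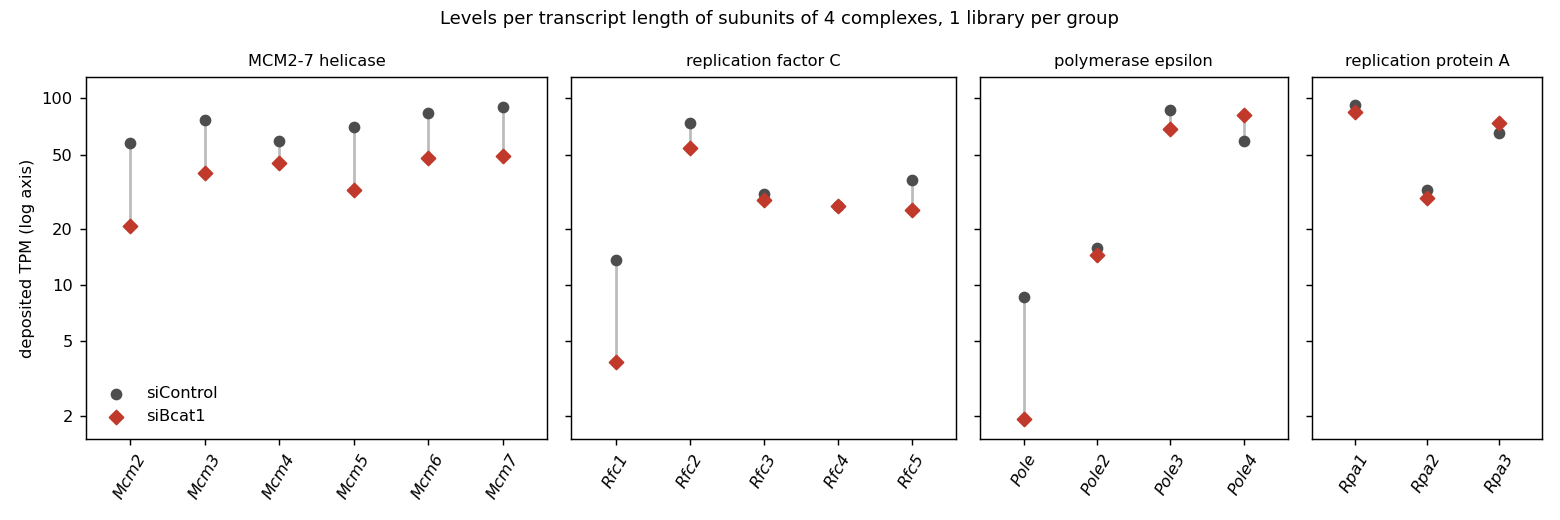
Deposited TPM values (log axis) of the subunits of 4 replication complexes in siControl (grey circles) and siBcat1 (red diamonds), 1 library each. Mcm2, Rfc1 and Pole are the lowest subunits of their complexes in both libraries and have the widest gaps between the libraries, while the 3 subunits of replication protein A keep the same order and a 2.86-fold and a 2.87-fold range.

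The genes of replication protein A, which coats single-stranded DNA, had log2 ratios within 0.31 of each other in scaled counts and within 0.91 after length adjustment. Rpa1, the large subunit, had 17762 counts in siControl and 17763 in siBcat1, which are 135 and 175 CPM and a log2 ratio of 0.38 [0.35 to 0.41]. Rpa2 had 3643 and 3630 counts and 0.37 [0.30 to 0.44]. Rpa3, the smallest subunit, had 2645 and 3272 counts and 0.68 [0.61 to 0.76]. All 3 were higher in scaled counts, but with TPM only Rpa3 was above 0 (0.17). With the length trend removed, the order turned, with 0.74 for Rpa1 and -0.17 for Rpa3. Of the 2 enzymes that finish lagging-strand fragments, the flap nuclease gene Fen1 had 5565 and 5395 counts and a log2 ratio of 0.33, and the ligase gene Lig1 had 6234 and 4308 counts and -0.16. Length-adjusted, Fen1 had 0.18 and Lig1 -0.01.

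The enzymes that supply deoxynucleotides were abundant and differed by less than 1.5-fold in scaled counts. Rrm1, the large subunit of ribonucleotide reductase, had the most counts of the 40 members, 41299 in siControl and 29716 in siBcat1, or 314 and 293 CPM, and a log2 ratio of -0.10 [-0.12 to -0.08]. Rrm2, its S-phase small subunit, had 14335 and 13614 counts and 0.30 [0.27 to 0.34]. Tyms, which makes thymidylate, had 13773 and 8779 counts and -0.27 [-0.31 to -0.24], and Tk1, which salvages thymidine, had 9810 and 6648 counts and -0.19 [-0.23 to -0.14]. Tk1 was lower after length adjustment (-0.64), since genes with transcripts as short as its 1440 bases were mostly higher. All 4 genes were below 0 with TPM, from -0.76 (Tyms) to -0.20 (Rrm2), as were 7824 of all 9935 genes. Of the 4, 3 were at least 1.5-fold lower on that scale, beside 46.5% of all genes.

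The 3 regulators of S-phase entry were all higher in scaled counts and after length adjustment. Ccne2 (chromosome 4, 11191351 to 11204779, plus strand), a cyclin E gene, had 2855 counts in siControl and 3618 in siBcat1, or 21.7 and 35.7 CPM. Its log2 ratio was 0.72 [0.65 to 0.79], with 0.19 on the TPM scale, and its length-adjusted value of 0.81 was the highest of the 40. Ccne1, the other cyclin E gene, had 2949 and 3254 counts and 0.52 [0.45 to 0.59], with 0.01 on the TPM scale and 0.32 length-adjusted. E2f1, the factor that activates replication genes, had 4165 and 4241 counts and 0.40 [0.34 to 0.46], and was -0.11 with TPM and 0.43 length-adjusted. These genes therefore lay on the other side of 0 from most MCM and polymerase genes in scaled counts.

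**Figure D4:**
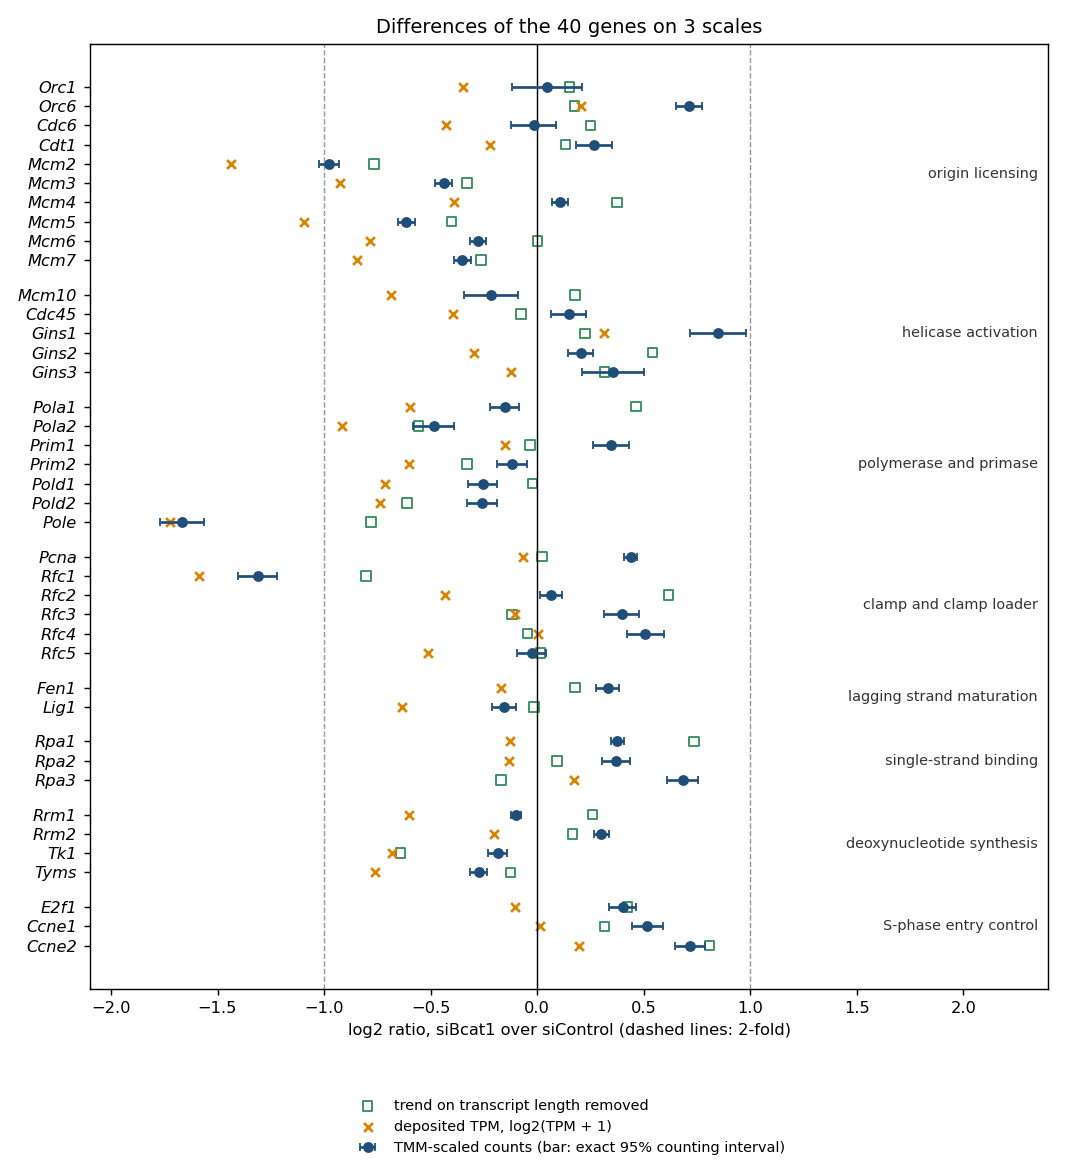
Log2 ratio of siBcat1 over siControl for the 40 genes by role, in TMM-scaled counts with exact 95% counting intervals (blue), with the trend on transcript length removed (green squares) and on the log2(TPM + 1) scale (orange crosses). Dashed lines mark 2-fold; Pole and Rfc1 lie past it on the lower side in scaled counts, and the TPM values lie to the left of the scaled counts for all 40 genes.

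The order of the members by level hardly differed between the libraries. Over the 40 genes, TPM in siControl and in siBcat1 had a Spearman correlation of 0.95. Pcna and Rrm1 ranked first and second in both. Mcm2 went from rank 14 to 25, and Pole from rank 36 to the last rank, 40. Rpa3 went from rank 12 to 5. Summed over the 40 genes, the level was 1931 TPM in siControl and 1448 TPM in siBcat1, but 2212 and 2182 CPM in scaled counts.

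Other genes of the pathway, taken from lists fixed by name, also held members on both sides of 0. Over all genes 25.6% were at least 1.5-fold lower and 17.6% at least 1.5-fold higher, and the counts of these lists, none of which was tested, are to be read beside those shares. Of 36 further replication genes, 30 had a mean of at least 5 CPM, with a median log2 ratio of 0.01, 8 at least 1.5-fold lower and 5 at least 1.5-fold higher. The lowest was Timeless, a part of the complex that protects moving forks, with 1526 and 451 counts and -1.38 (length-adjusted -0.94). Wdhd1, which links the helicase to polymerase alpha, had 1208 and 466 counts, or 9.19 and 4.60 CPM. Top2a, the topoisomerase that untangles copied DNA, had 23535 and 9245 counts and -0.97 (length-adjusted -0.38), while Pole4 was highest. Of 16 nucleotide supply genes the median was 0.05, with 2 lower and 4 higher at 1.5-fold. Rrm2b, the alternative small subunit of ribonucleotide reductase that p53 induces, had 2101 counts in siControl and 385 in siBcat1 and a log2 ratio of -2.07 (length-adjusted -1.60). Nme1, a nucleoside diphosphate kinase gene, had 25519 and 51000 counts and 1.37, with Impdh2 at 0.99 and Dut at 0.83.

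Of 12 genes for chromatin assembly on copied DNA, 4 were at least 1.5-fold lower (beside 25.6% of all genes) and 2 at least 1.5-fold higher (beside 17.6%), with a median of -0.16. Uhrf1 and Dnmt1, which carry DNA methylation over to the new strand, had -1.22 and -1.16 (length-adjusted -0.98 and -0.54), Ssrp1 had -0.84 and Slbp, which binds histone messages, 0.85. Among 21 measured genes of the E2F family and of G1/S control, the median was -0.03, with 4 lower and 2 higher at 1.5-fold. In scaled counts the repressors E2f7 and E2f8 had -1.01 and -1.04, and Mybl2 -0.90, opposite in sign to E2f1, while Lin37 had 0.99. With TPM E2f1 was below 0 too (-0.11), beside -1.17 for E2f7, -1.21 for E2f8 and -1.21 for Mybl2. Length-adjusted, E2f7, E2f8, Mybl2 and Lin37 had -0.37, -0.75, -0.62 and 0.40.

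The median of the mitosis genes lay below that of the replication members. The 30 mitosis genes had a median log2 ratio of -0.39, with 23 below 0, beside 0.06 for the 40 members, with 19 below 0. Over all 9935 genes, 5287 were below 0. Of the mitosis genes 4 of 30 were at least 2-fold lower, a share near the 13.0% of all genes, and 8 of 30 at least 1.5-fold lower, near the 25.6% of all genes. Length-adjusted, the medians were -0.21 and 0.02, and with TPM -0.86 and -0.41, so the mitosis median was the lower of the pair on each of these scales. No test of this difference was possible with 1 library per group. Mki67, the proliferation marker, had 4930 counts in siControl and 1323 in siBcat1 and a log2 ratio of -1.52, which was -0.35 after adjustment for its 10061 bases. Bub1b, a spindle checkpoint gene, had -1.37 and Foxm1, a mitotic transcription factor gene, -1.33 (length-adjusted -1.08 and -0.84), and Knl1, filed as Casc5, had -2.12. The 12 genes for G1 cyclins, their kinases and CDK inhibitors had a median of 0.14 (length-adjusted -0.18), with Cdk6 at -1.66, Ccnd2 at -1.03, and the inhibitor genes Cdkn2b at 1.23 and Cdkn1c at 1.01. Length-adjusted, these 4 had -0.37, -0.25, 0.75 and 0.77.

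**Figure D5:**
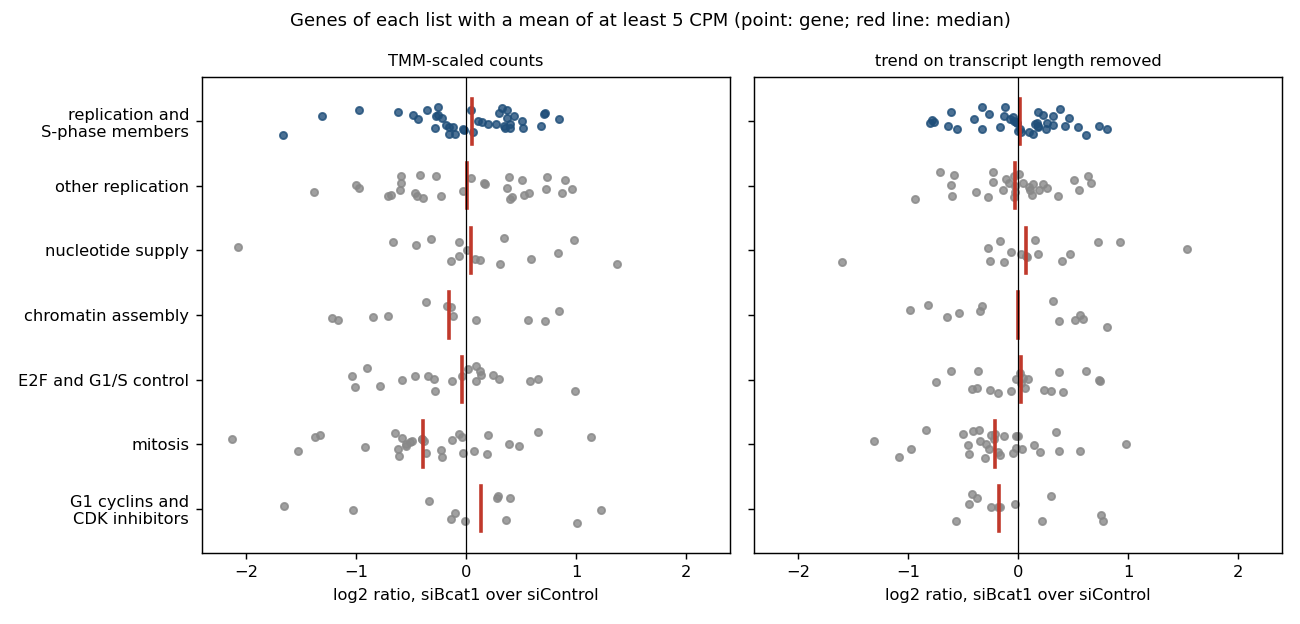
Log2 ratio of siBcat1 over siControl for the 40 members (blue) and the genes of 6 further lists (grey) that reached 5 CPM on average, in TMM-scaled counts (left) and with the length trend removed (right); red lines are medians. The members' median is 0.06 on the left and 0.02 on the right, and the median of the mitosis genes is -0.39 and -0.21.

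Of the 40 members, 11 share exonic bases with a protein-coding gene on the opposite strand in GENCODE, and for 6 of them (Mcm7, Gins2, Rfc2, Rfc4, Rfc5 and Ccne2) the shared part is over 10% of their exonic bases. The library kit keeps strand, but whether counting used strand is not given in the sources used here, so their counts may hold reads of the partner. Mcm2, Mcm5, Pole, Rfc1, Gins1 and Rpa3 share no exonic bases with another protein-coding gene.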

How the data were processed

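RNA sequencing was done on 2 libraries, 1 per group, with groups taken from the treatment label. Libraries were made with a stranded mRNA kit, per the labels' protocols. The tools FastQC, Trimmomatic, HISAT2 and StringTie, and the build mm10, come from the submitters' processing notes, which give no version here. The deposited counts are whole numbers for each gene and were left unscaled by the authors, per the file headers. The deposited TPM values were scaled by the authors for length and depth, per the file headers.

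TMM factors (edgeR 4.0.16 in R 4.3.3) were computed on all 24532 genes. Genes below a mean of 5 CPM were left out, and 1.5-fold and 2-fold served as rules of size. Exact (Clopper-Pearson) 95% intervals treat each count as an independent molecule; PCR copies are not. Lengths are means over GENCODE M21 transcripts matched by RefSeq accession; a lowess curve (fraction 0.3, 3 iterations, statsmodels 0.14.6) gave the length trend. Implied length is the ratio of counts to TPM, as a geometric mean over both libraries, brought to bases by the median ratio of annotated length to it. Promoters are RefSeq's (GRCm38.p6). Alternatives were scaling by library totals, by upper quartiles or by DESeq2 1.42.0, TPM with a pseudocount of 1 or 0.1, other minimum CPM values and 3-fold. Named genes were all 40 members, up to 4 genes with the largest absolute log2 ratio of each further list, and Bcat1; partners in the members' complexes, and Ptprc and other markers by level, are named too. The members and lists were chosen with earlier results of these data known. Calculations were tested on simulated data.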

Additional observations from a re-analysis of the deposited data

How the results depend on the processing

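With DESeq2 size factors or library totals, all counts of members past 2-fold and 1.5-fold lay within 1.5 times those given, and the sign changed for 0 and 2 of 40 members. Upper-quartile factors moved the members' median from 0.06 to 0.18 and changed 4 signs. TPM moved the median to -0.41 (pseudocount 1) or -0.44 (pseudocount 0.1); with either pseudocount, 4 members were at least 2-fold lower, 17 at least 1.5-fold lower, 0 at least 1.5-fold higher, and 15 signs changed. With the trend on annotated or on implied length removed, 0 members were at least 2-fold lower, and with implied length 1 was at least 1.5-fold higher. Rpa3, called higher, turned to -0.17 with annotated and -0.16 with implied length. At a minimum of 20 CPM, which Pole misses, 1 member was at least 2-fold lower, and at 3-fold 1 was. No paired analysis was possible because each group has 1 library. Depth limits the members under 20 CPM, which number 10; without replicates, no difference given here has an error beyond counting.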

Other observations

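The ratio of counts to TPM is the mean transcript length the authors' quantification used for a gene, times a constant for each library. A factor common to most genes can thus come from that constant alone and shows no change of transcript length. From siControl to siBcat1 this ratio changed by the same factor for most genes, with a median of 1.09. It differed from that median by over 5% for 288 of 9932 genes (2.90%), and among the 40 members for Mcm10, where it was 1.19. Cdc45 was next with 1.14. Both genes have 2 transcript accessions in the table, and for both the TPM values are therefore lower with siBcat1 than the counts and the common shift give. For Mcm10 the log2 ratio was -0.22 in scaled counts and -0.83 as log2(TPM + 0.1), a gap of 0.61, while the median gap over the 40 members was 0.50.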
